A study of Danio rerio with 4 samples.

Results

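The data concern 9 zebrafish genes of the synaptonemal complex and of meiotic recombination in the testis: sycp1, sycp2, sycp3, dmc1, spo11, smc1b, hormad1, mlh3 and msh4. They were chosen by name, with earlier results of these data known. Through their RefSeq transcript names, 10 array probes could be assigned to 5 of the 9 genes, out of 13373 named genes in all. These were sycp1 with 4 probes, dmc1 and spo11 with 2 probes each, and hormad1 and sycp3 with 1 probe each. The genes sycp2, smc1b, mlh3 and msh4 were not matched to a probe and are not analysed here.

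Testes were taken from 4-month-old zebrafish (Danio rerio) after 6 weeks in water with 20 µg/L MCLR (microcystin-LR, a cyanobacterial toxin that inhibits the protein phosphatases PP1 and PP2A) or with 0 µg/L. Total RNA of each sample was labelled with Cy3 and measured on a 1-colour Agilent array, with 2 control and 2 MCLR arrays. The labels name no strain, do not say whether replicates were separate fish or pools, and do not assign arrays to the independent experiments that the design mentions, so p-values measure only the spread between these samples, which may be technical. All 4 arrays shared 1 slide with MCLR at positions 1 and 2 and control at positions 3 and 4, and slide position and treatment cannot be told apart.

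Meiotic prophase in the testis takes place in primary spermatocytes. SPO11 cuts DNA, the recombinase DMC1 leads the cut ends to the homologous chromosome, and a proteinaceous zipper, the synaptonemal complex, joins the homologues along axes that carry cohesin, HORMAD1, SYCP2 and SYCP3. SYCP1 forms the transverse filaments between the axes, while the MutS and MutL proteins MSH4 and MLH3 act on the intermediates that become crossovers. In zebrafish, as in mammals, spermatocytes that fail in these steps do not yield normal sperm.

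Over the whole slide, between 81.9% and 88.2% of 43803 zebrafish spots per array were marked as well above background and 0 were saturated. Levels are given as log2 of the processed signal minus log2 of the array's 75th percentile, so a level of 0 is the 75th percentile of that array, and they are compared for one probe across arrays and not between probes. Among probes spotted 5 times on an array, the median SD between spots was 0.14 to 0.24 on the log2 scale. The testis markers ddx4 (germ line), piwil1 (piRNA pathway), amh (Sertoli cells), star (Leydig cells) and cimap1b (sperm tail) were all measured, ddx4 reading 1.39 and 1.09 on control arrays, 1.40 and 1.41 on MCLR arrays. Each of the 10 meiotic probes was well above background on every array. The weakest reading among them, spo11 probe A_15_P183142 on control replicate 2, was 12.5 times the lowest signal that carried this mark there.

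The comparison of MCLR with control asked whether the toxin altered the transcripts of meiotic prophase. None of the 5 genes passed the test for a difference larger than the spread between arrays. The transverse filament gene sycp1 had a log2 fold change of -0.29 and the recombinase gene dmc1 one of 0.32, and hormad1, spo11 and sycp3 lay between these values. With limma, 0 of 5 genes passed an adjusted p of 0.05, where 0% of 24323 genes did (and 0% of 37420 probes), and 0 of 5 had an unadjusted p under 0.05, where 9.2% of genes did. In a bulk tissue sample, a change in the number of spermatocytes and a change in RNA per spermatocyte cannot be told apart.

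**Figure D1:**
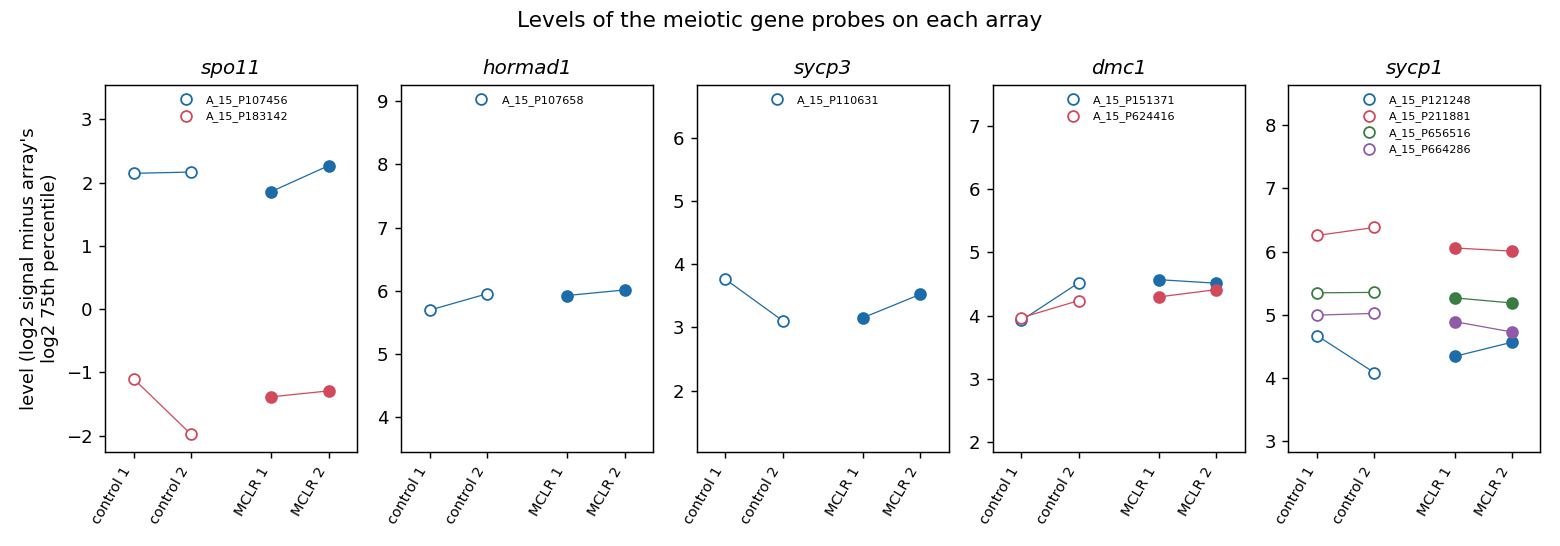
Level of each probe on each array (y axis, log2 signal minus the array's log2 75th percentile; every panel spans the same number of log2 units), with open points for the 2 control arrays, filled points for the 2 MCLR arrays and a line joining replicates of a group. Of the 10 probes, 3 sycp1 probes had both MCLR points below both control points, 1 dmc1 probe had both above, and 6 overlapped. The 3 sycp1 probes read the same transcript in the same samples and are not separate genes. Of all 37420 probes, 34.5% had no overlap, counting either direction.

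Break formation was represented by spo11, which encodes the enzyme that makes the DNA breaks of meiosis. Its probe A_15_P107456 read 2.15 and 2.17 on the control arrays, 1.86 and 2.27 on the MCLR arrays. The control replicates were nearly equal and lay between the MCLR replicates. The difference, as a log2 fold change with its SE over 2 arrays per group, was -0.09 ± 0.26 (limma adjusted p = 0.999), with a 95% interval from 0.597-fold to 1.47-fold of control. The other probe, A_15_P183142, read -1.11 and -1.98 in control samples, -1.39 and -1.29 under MCLR. Here control replicate 2 was the low array and the log2 fold change was 0.20 ± 0.35, of opposite sign to the first probe.

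The chromosome axis was represented by hormad1 and sycp3. HORMAD1 binds unsynapsed axes and is removed from them as homologues synapse. The control samples read 5.70 and 5.95 and the MCLR samples 5.93 and 6.01, so MCLR replicate 1 lay just under control replicate 2. The log2 fold change was 0.15 ± 0.24 (limma adjusted p = 0.999), with an interval from 0.725-fold to 1.69-fold.

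SYCP3 is a structural protein of the axis and a standard stain for spermatocyte chromosomes. For sycp3 the control arrays read 3.76 and 3.11, the MCLR arrays 3.15 and 3.52. Both MCLR arrays lay between the control arrays, which were 0.66 apart on the log2 scale. Its log2 fold change was -0.09 ± 0.32 (limma adjusted p = 0.999), with an interval from 0.536-fold to 1.64-fold. The sign turned without control replicate 1 (0.23) and without MCLR replicate 1 (0.09). Leaving out control replicate 2 kept the sign and gave -0.42.

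Strand exchange was represented by dmc1, which encodes a meiosis-specific recombinase. Probe A_15_P151371 read 3.92 and 4.52 on control arrays, 4.57 and 4.51 on MCLR arrays. Control replicate 1 was lower than the other 3 arrays, and MCLR replicate 2 lay just under control replicate 2. The log2 fold change was 0.32 ± 0.29, 1.25-fold of control (limma adjusted p = 0.966), with an interval from 0.753-fold to 2.07-fold. Probe A_15_P624416 read 3.97 and 4.24 on control arrays, below the 4.30 and 4.41 of the MCLR arrays, and its log2 fold change was 0.25 ± 0.26 (limma adjusted p over all probes = 0.982). Both probes were thus lowest on control replicate 1. The first probe's log2 fold change became 0.02 when control replicate 1 was left out, and 0.62 when control replicate 2 was.

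Synapsis itself was represented by sycp1. Probe A_15_P211881, which had the highest mean signal and stood for the gene, read 6.26 and 6.38 on control arrays, 6.06 and 6.01 on MCLR arrays. Both MCLR arrays lay below both control arrays. The log2 fold change was -0.29 ± 0.23, that is, the control level was 1.22 times that in MCLR (limma adjusted p = 0.934), with an interval from 0.547-fold to 1.23-fold of control.

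The other sycp1 probes were not alike. Probe A_15_P656516 read 5.35 on each control array, 5.27 and 5.19 on the MCLR arrays (log2 fold change -0.12 ± 0.24). Probe A_15_P664286 read 4.996 and 5.02 for control, 4.89 and 4.73 for MCLR (-0.20 ± 0.25). These 2 probes also had no overlap between the groups. Probe A_15_P121248 read 4.67 and 4.09 for control, 4.34 and 4.57 for MCLR, so the groups overlapped, with a log2 fold change of 0.08 ± 0.30. The mean of the 4 probes gave -0.13 ± 0.22 for sycp1 (limma adjusted p = 0.968).

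**Figure D2:**
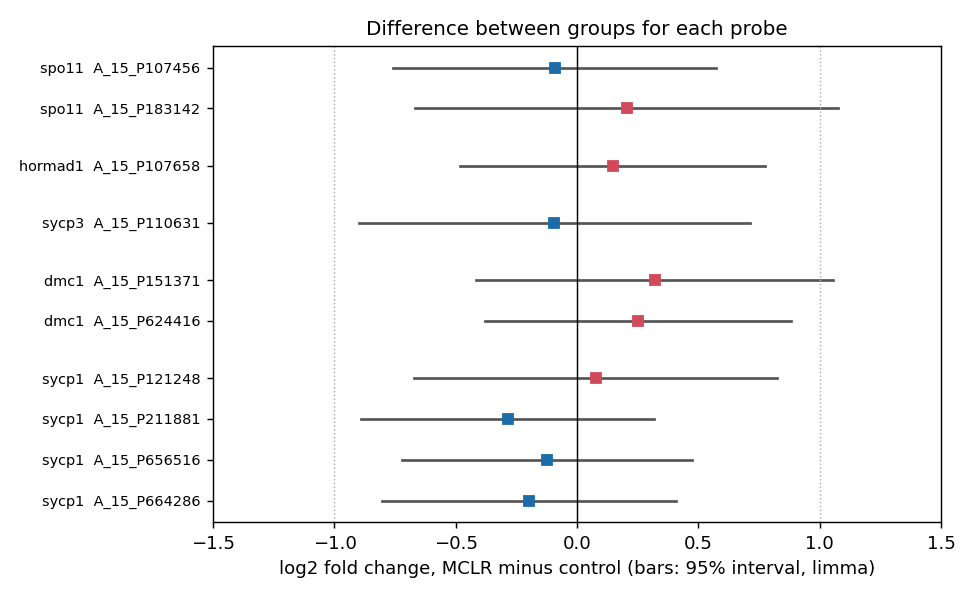
Log2 fold change of MCLR against control (x axis) for each probe, with limma's 95% interval as a bar; dotted lines mark a 2-fold difference, blue squares values below 0 and red squares values above 0. All 10 intervals span 0, and 5 probes lie on either side of it.

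Counted over the genes, 1 of 5 (sycp1) had groups that did not overlap, where 34.4% of the 24323 genes did in either direction and 9.08% with MCLR below control. Counted over the probes, 4 of 10 did not overlap (3 of them sycp1 probes), against 34.5% of 37420 probes in either direction. By sign, 2 of 5 log2 fold changes were above 0, beside 61.4% of all genes. The median log2 fold change of the 5 genes was -0.09, beside 0.08 over all genes tested, and their median size without sign was 0.15, beside 0.21 over all genes. In 4 of 5 genes a gap between replicates of a group was larger than the difference between the groups, as in 76.9% of all genes. The 95% interval stayed within 2-fold either way for 4 of 5 genes, the exception being dmc1, against 55.9% of all genes. For spo11 and dmc1 this turned on the probe: the interval of spo11 probe A_15_P183142 ran from 0.630-fold to 2.11-fold and so held a 2-fold difference, and that of dmc1 probe A_15_P624416, from 0.768-fold to 1.84-fold, did not. Small differences were not particular to the 5 genes. The interval stayed within 2-fold for 41 of 45 other meiotic genes and 20 of 21 spermatid and flagellum genes, both counted below. Their median sizes were 0.12 and 0.085.

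**Figure D3:**
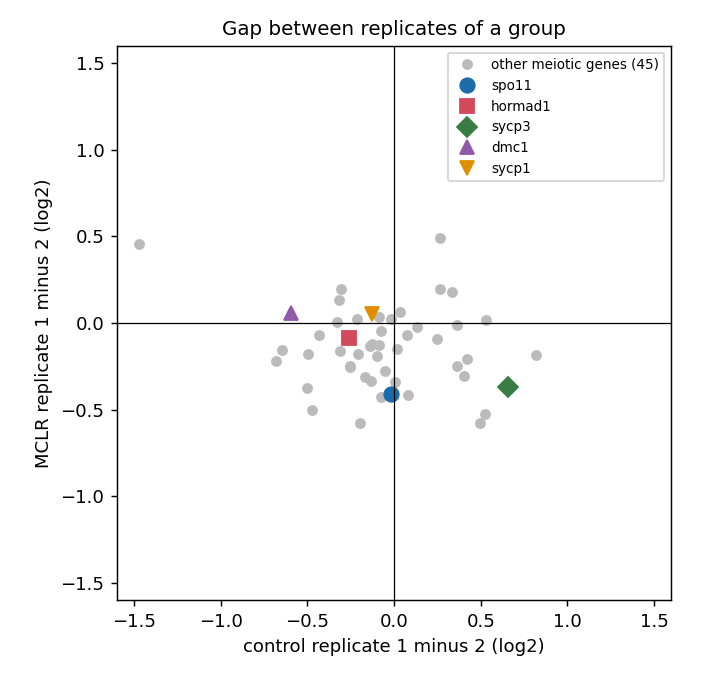
Level on replicate 1 minus level on replicate 2 in the control group (x axis) and in the MCLR group (y axis), both on the log2 scale, for the 5 genes (coloured) and 45 other meiotic genes (grey). In the controls dmc1 (-0.59) and sycp3 (0.66) lie on opposite sides of 0, while sycp1 lies near 0 on both axes.

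Other genes with a part in meiosis, not all of them particular to it, were counted in 4 lists by role. Of 101 genes listed, 45 had a named and detected probe. Of these, 21 were higher and 24 lower in MCLR by the sign of the log2 fold change, with a median of -0.02 and a range from -0.23 to 0.35. With limma 0 of 45 passed the adjusted threshold, and 0 of 45 had an unadjusted p under 0.05. Groups did not overlap in 3 genes with MCLR above and 6 with MCLR below, beside 25.3% and 9.08% of all genes.

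Among other genes of the axis, cohesin, central element and telomere attachment, 6 of 9 were higher and 3 lower (median log2 fold change 0.14). The value was 0.35 ± 0.32 for trip13, whose product removes HORMAD proteins from synapsed axes, 0.33 ± 0.32 for terb1 and 0.17 ± 0.24 for terb2, which tie telomeres to the nuclear envelope, 0.17 ± 0.25 for the cohesin subunit smc3, and 0.14 ± 0.23 for sun1b, of the nuclear envelope (0.04 and close to 0 with other probes). Other probes gave 0.11 for trip13, 0.25 for smc3 and 0.24 for terb2, the last with both MCLR arrays above both control arrays. The terb1 probe was weak, reading -5.20 and -4.52 for control, -4.64 and -4.42 for MCLR. The median level of all genes tested was -1.53 and -1.55 on the control arrays. Among genes of break formation and strand exchange, 8 of 16 were higher and 8 lower (median -0.02). Here mei4, a partner of SPO11 in mouse, read 2.11 and 2.13 for control, 2.38 and 2.36 for MCLR, without overlap; its log2 fold change was 0.25 ± 0.23 (limma adjusted p = 0.964). Another mei4 probe, at 0.10 ± 0.28, overlapped. The recombination gene xrcc3 gave -0.21 ± 0.27. A second xrcc3 probe, weak at -3.00 and -3.80 for control, -2.84 and -3.35 for MCLR, gave 0.30. The gene ankrd31, needed for normal break placement in mouse, gave 0.16 ± 0.25.

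Crossover genes were 3 higher and 3 lower of 6 (median 0.06). The endonuclease subunit mus81 gave 0.17 ± 0.26 (0.24 with another probe), and the MutL gene pms1 0.17 ± 0.31 (0.53 with another probe). The gene rmi1 of the dissolution complex gave -0.12 ± 0.27 (0.04 with another probe), and the exonuclease exo1 -0.05 ± 0.25. The helicase gene fancm gave 0.14 ± 0.52, reading 2.58 and 4.05 for control, 3.68 and 3.22 for MCLR, so the control arrays held both its lowest and its highest reading. Of 14 genes tested (23 listed) under meiotic entry and division, piRNA genes such as mov10l1 among them, 4 were higher and 10 lower (median -0.07). The cyclin gene ccna1 gave 0.29 ± 0.28 (0.05 with another probe), and the germ cell RNA-binding genes dazl and rbm46 gave -0.23 ± 0.25 and -0.15 ± 0.23, with -0.37 for another dazl probe and -0.15 and 0.09 for other rbm46 probes. The kinase gene cdk2 gave -0.22 ± 0.25 (close to 0 with another probe), and mov10l1, a piRNA helicase, 0.25 ± 0.30 (0.41 to 0.65 with 3 other probes). For dazl the control arrays read 4.87 and 5.19, the MCLR arrays 4.87 and 4.73. Some of the other probes were weak. The mov10l1 probe at 0.65 read -4.47 and -3.82 for control, -3.32 and -3.67 for MCLR. That at 0.41 read -4.77 and -4.44 for control, -3.64 and -4.76 for MCLR. The pms1 probe at 0.53 read -4.41 and -4.30 for control, -3.73 and -3.93 for MCLR.

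**Figure D4:**
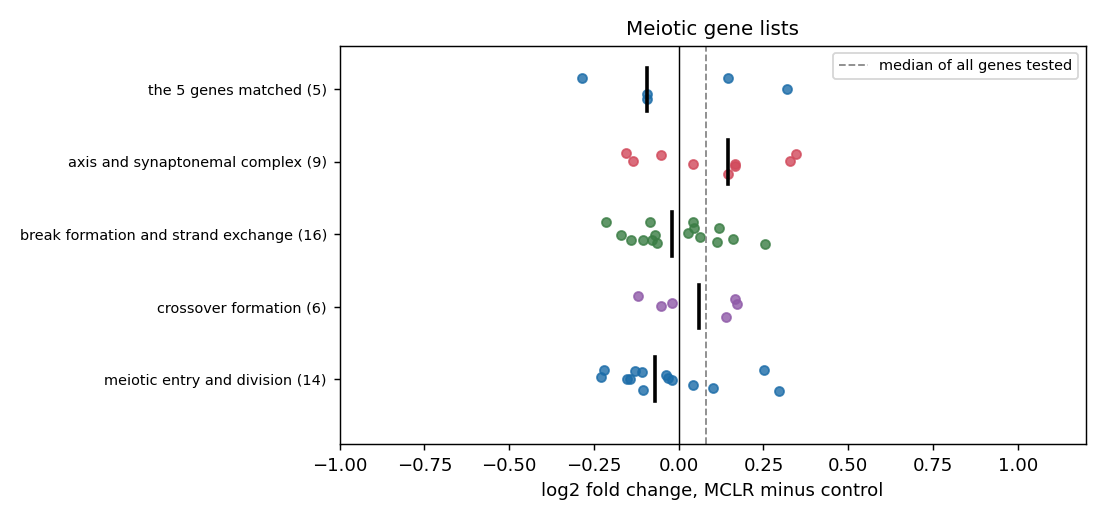
Log2 fold change of MCLR against control (x axis) for each gene (points) of the 5 matched genes and of 4 other meiotic lists, with the number of genes in brackets, a black bar at each list's median and a dashed line at the median of all genes tested (0.08). The 45 other genes lie between -0.23 and 0.35, and the 5 genes between -0.29 and 0.32.

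Genes of neighbouring germ cell stages were counted in the same way. Spermatogonial and germ line genes had a median log2 fold change of 0.17 (15 genes, 10 higher and 5 lower) and a range from -0.52 to 0.99, and spermatid and flagellum genes one of 0.01 (21 genes, 11 higher and 10 lower), with 0 genes of either list past limma's adjusted threshold; 1 and 0 of them had an unadjusted p under 0.05. Their median sizes without sign were 0.34 and 0.085, beside 0.12 for the 45 other meiotic genes and 0.15 for the 5 genes. The medians of the other marker lists were 0.15 for Sertoli cells (12 genes), 0.03 for Leydig cells (9), -0.26 for red blood cells (7), 0.25 for leukocytes (14), 0.10 for smooth muscle (5) and -0.03 for liver and plasma proteins (11). Oocytes also pass through meiotic prophase. The oocyte list had 11 of 13 genes measured, a median log2 fold change of -3.59e-05, and a log2 summed level of 3.76 and 4.09 for control, 3.75 and 4.11 for MCLR. The brightest gene of this list, org, alone read 3.30 and 3.63 for control, 3.27 and 3.68 for MCLR, not far below that sum. Of the list's genes 5 were higher and 6 lower. Groups did not overlap for btg4 (0.62, MCLR above) or for gdf9 (-0.41) and bmp15 (-0.27, MCLR below in both). These genes were named after their values were seen. They were 1 gene above and 2 below of 11, beside 25.3% and 9.08% of all genes. The same counts were 5 and 1 of 15 spermatogonial and germ line genes, and 2 and 1 of 21 spermatid and flagellum genes.

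RNA of pancreas genes was highest on control replicate 2 but was not confined to it. Of 18 pancreas genes with a named probe, 17 were well above background on all 4 arrays. All 17 tested genes of the pancreas list were highest on control replicate 2, as were 5771 of all 24323 genes. The list's log2 summed level was 3.93 and 8.41 for control, 3.89 and 4.21 for MCLR. The list's median log2 fold change was -2.36. Neuron and glia genes (7 tested, 1 higher and 6 lower) had a median log2 fold change of -1.25 and a range from -1.76 to 2.58. The log2 summed level of these genes was 5.21 and 0.66 for control, 2.37 and 0.62 for MCLR, highest on control replicate 1. Without control replicate 2, the log2 fold changes were -0.22 for sycp1, 0.62 for dmc1, 0.28 for hormad1, -0.08 for spo11 and -0.42 for sycp3, and 0 of the 5 genes passed limma's adjusted threshold. Without control replicate 1 they were -0.35 for sycp1, 0.02 for dmc1, 0.02 for hormad1, -0.10 for spo11 and 0.23 for sycp3. The part of the other tissues' RNA in these values was not tested.

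**Figure D5:**
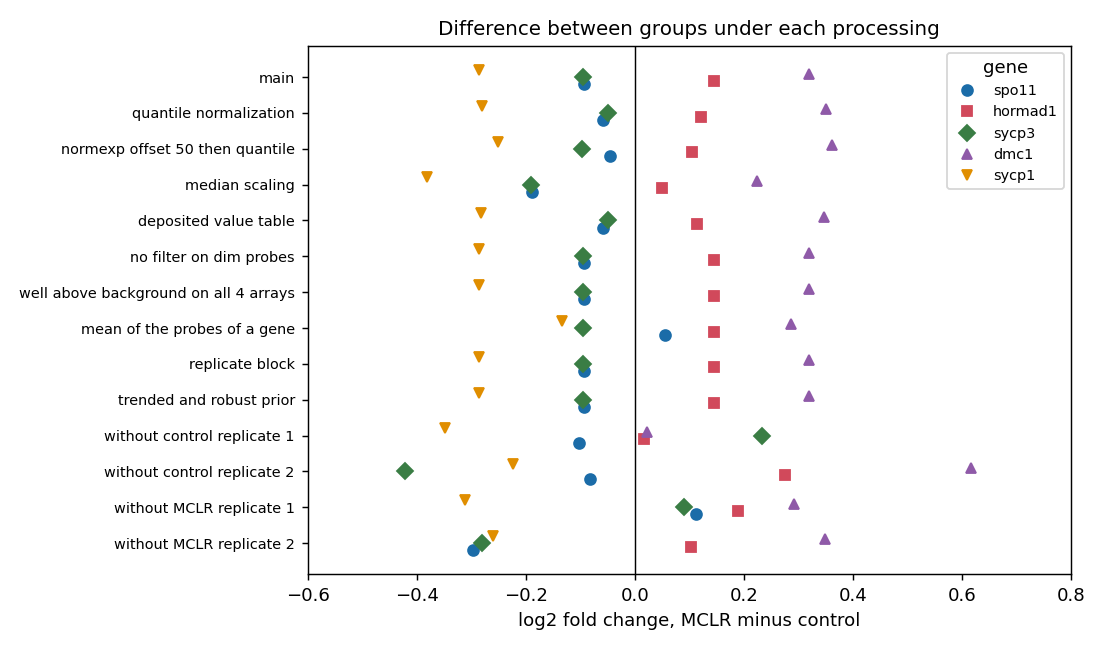
Log2 fold change of MCLR against control (x axis) for the 5 genes under the reported processing ("main") and each alternative (y axis; genes are offset slightly in height). Under every setting shown sycp1 lies below 0 (-0.38 to -0.13), and dmc1 (0.02 to 0.62) and hormad1 (0.02 to 0.28) lie above 0, while spo11 and sycp3 cross 0. The settings reuse the same arrays and, except with probe means, 1 probe per gene, so their signs are not independent. The sycp1 probe A_15_P121248, not shown, ran from -0.22 to 0.37.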

How the data were processed

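Intensity values were deposited as Agilent Feature Extraction 11.0.1.1 output, per the submitters' processing notes and the file headers. The processed intensity was background-subtracted and detrended within each array, per the file headers, and was not normalized between arrays; 0 or 1 marks give outlier, saturation and background calls. The authors' deposited log2 table has a median of 5.91 on every array and a 75th percentile of 8.44 to 8.45. Its tool is not given in the sources used here, and it correlated with the log2 processed signal at 0.992 to 0.995.

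Each array's log2 signal was reduced by its log2 75th percentile, leaving out 60 probes marked as outliers. Names came through RefSeq transcripts of GRCz12tu (25978 of 43603 probes matched); the files are of another build, and no coordinates or sequences are given. A probe was kept if well above background on both arrays of at least 1 group, and a gene took its probe with the highest mean. Groups were compared with limma 3.58.1 in R 4.3.3 (two-sided, Benjamini-Hochberg over 24323 genes, or over 37420 probes for values of single probes), with 2 residual and 3.52 prior degrees of freedom. The same steps were first run on simulated data with independent noise drawn from limma's own fit. Such data hold no slide position or tissue difference, so that run checked the computation only. At the median SE of 0.28, an unadjusted p of 0.05 took a difference of 0.69 on the log2 scale. Tables and plots used Python 3.11.15, numpy 2.4.6, pandas 2.3.3 and matplotlib 3.10.9.

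The members and lists were chosen with earlier results of these data known. Named genes were all members and, of each of the 4 other meiotic lists, up to 5 genes with the smallest p; some of these are not reported here. The 3 list genes with the profile nearest the members' median, and defining genes of testis and other tissues, were also taken. Another 11 lists held cell type markers. Alternatives were quantile normalization, normexp (offset 50, on the median raw and local background intensity) followed by quantile normalization, median scaling, the deposited table, 2 other probe filters, probe means, every probe alone, a replicate block, eBayes with trend and robust options, and dropping each array in turn.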

Additional observations from a re-analysis of the deposited data

How the results depend on the processing

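None of 14 settings put any of the 5 genes or the 45 other meiotic genes past limma's adjusted threshold, and none of the 12 settings tested on single probes did so for the 10 probes. Over all genes, limma called 214 with median scaling, 2 with the trended and robust prior and, leaving out 1 array at a time, 0 to 322 (214 without control replicate 1 and 322 without control replicate 2), beside 0 as reported. The number of the 5 genes with groups that did not overlap was 1 as reported, beside 34.4% of all genes. It was 2 with quantile normalization, with normexp, in the deposited table and with probe means, and 2 to 4 with 1 array left out. With every probe on its own it was 4 of 10, beside 34.5% of all probes. Fewer arrays leave less room for overlap. For the other settings the share of all genes was not computed, so these counts are not a result about the 5 genes. The median of the 5 genes was 0.056 with probe means, -0.19 with median scaling and ran from -0.26 to 0.11 with 1 array left out. The median of all genes also moved with the scaling. It was 0.08 as reported, 0.02 with quantile normalization, 0.01 with normexp, -0.01 with median scaling and 0.12 with probe means. The sign of spo11 turned with probe means (0.056) and ran from -0.30 to 0.11 with 1 array left out, turning without MCLR replicate 1. That of sycp3 ran from -0.42 to 0.23, turning without control replicate 1 (0.23) and without MCLR replicate 1 (0.09). Probe A_15_P121248 of sycp1 gave -0.020 with median scaling and -0.22 to 0.37 with 1 array left out, and probe A_15_P183142 of spo11 -0.23 to 0.64. The cause of these turns was not tested. With the replicate number as a block 0 of the 5 genes were called (adjusted p of 0.885 for sycp1 and 0.903 for dmc1), and the block changed no other call; deviations of same-numbered arrays correlated at 0.19 across genes, and with 2 pairs the numbers were not taken as pairs. A lone remaining array was taken to have the spread of the other group. The number of arrays, 2 per group, limits the precision, and all 5 intervals spanned 0.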

Other observations

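The level of sycp3 relative to dmc1 differed between the control arrays. The level of sycp3 minus that of dmc1 was -0.16 on control replicate 1, -1.41 on control replicate 2, -1.42 on MCLR replicate 1 and -0.99 on MCLR replicate 2. The ratio thus shifted 2.38-fold between the control arrays, and by -0.41 on the log2 scale from the control mean to the MCLR mean. The dmc1 level used was that of probe A_15_P151371, for which control replicate 1 minus 2 was -0.59. For dmc1 probe A_15_P624416 that gap was -0.27, so with it the ratio shifted less between the control arrays. The pair of sycp3 and dmc1 was chosen after its values were seen, and the shift was not tested. The median level of the 45 other meiotic genes was 2.76 and 2.61 on the control arrays.

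Probes of one gene also differed in array order. From high to low, sycp3, the sycp1 probe A_15_P121248 and the spo11 probe A_15_P183142 shared the array order control replicate 1, MCLR replicate 2, MCLR replicate 1, control replicate 2, which is also the order of the arrays' median signals (68.0, 65.8, 57.5 and 49.6). This order, noticed after the values were seen, held for 3 of the 10 meiotic probes and for 3.04% of all 37420 probes. The other sycp1 probes and the other spo11 probe had other orders. The 75th percentiles used for scaling ranked the arrays otherwise, at 393 and 310 for control replicates 1 and 2, 301 and 398 for MCLR replicates 1 and 2. The part of array brightness in the 3 probes was not tested.

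Of the other meiotic genes, the profiles nearest the median profile of the 5 genes over the 4 arrays were those of ccnb1 (root mean square difference 0.03 on the log2 scale), rpa3 (0.05) and ccnb3 (0.06), as a description over 4 arrays. As deviations from each gene's mean, that median profile was nearly flat, at 0.04 and 0.06 for control, -0.12 and 0.13 for MCLR. The 5 genes differed among themselves, so nearness to their median is not nearness to any 1 of them.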
